A study of Mus musculus with 6 samples.

Results

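Transforming growth factor beta (TGF-beta) signalling was followed through 10 genes in the renal cortex of mice: the ligands Tgfb1, Tgfb2 and Tgfb3, the receptors Tgfbr1 and Tgfbr2, the signal carriers Smad2 and Smad3, the inhibitors Smad7 and Skil, and Ltbp1, a protein that holds the ligand in the matrix. The members were taken by name, as every non-control probe of the array whose gene name is one of these 10, and they make up 10 of 37074 gene names. They were measured by 23 probes. Of these, 15 probes, at least 1 for each gene, were well above background on all 3 arrays of a group and were tested, and the other 8 were too dim.

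Each array held RNA from the renal cortex of 1 male mouse at 16 weeks of age. The labels give 3 mice the genotype db/m, the lean carrier of the leptin receptor mutation, and 3 mice the genotype db/db, which lacks the working receptor and becomes obese and diabetic. The deposited design text and the paper describe the comparison in another way, as db/db mice given Huangqi decoction (HQD), a herbal formula, for 8 weeks against untreated db/db mice, so that the group labelled db/m may hold HQD-treated db/db mice. A treatment of 8 weeks is given for every array, of either label. In the paper, mice not given HQD, db/db and db/m alike, received the carboxymethylcellulose vehicle by daily gavage over those weeks. The dose behind these arrays is not given in the sources used here. The groups were kept as labelled, every difference below is the labelled db/m mean less the labelled db/db mean on the log2 scale, and whether genotype or treatment separates the groups cannot be told apart. In a tissue sample, fewer cells of a type and less RNA per cell cannot be told apart either.

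TGF-beta is secreted bound to its own propeptide and to a latent TGF-beta binding protein such as Ltbp1, which tethers it to fibrillin in the matrix until integrins, proteases or thrombospondin release it. The free ligand joins the type II receptor Tgfbr2 to the type I receptor Tgfbr1, which phosphorylates Smad2 and Smad3, and these enter the nucleus with Smad4 and turn on matrix and growth-arrest genes. Smad7 blocks the type I receptor and Skil (SnoN) blocks Smads on DNA, and both are themselves induced by the pathway. In the kidney the pathway is known for its part in mesangial matrix growth and in tubulointerstitial fibrosis.

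The results turned on the probes of 3 genes, whose first 30 of 60 bases are shown because probes of the same gene did not always move together. Positions (mm9, as in the scanner files) cover the whole probe, and sequences run 5′ to 3′.
Tgfbr1, A_52_P4538, chr4:47427421-47427480, plus strand: aaagtgtgagtgttacgttgctaagttact
Tgfbr1, A_51_P280137, chr4:47419898-47423556, plus strand: attccaaacagatggcagagctgtgaggcc
Tgfb2, A_65_P10913, chr1:188449333-188449392, minus strand: attggaaatacgcccaagatcgaacagctt
Tgfb2, A_51_P317640, chr1:188447534-188447593, minus strand: tcatccattatttccctgatttcattgaaa
Ltbp1, A_55_P1973033, chr17:75790530-75790589, plus strand: ggaagtggaagagcttcatagagtttatta
The span of A_51_P280137 is longer than its 60 bases, so this probe crosses a gap in the genome, whereas both Tgfb2 probes and the other Tgfbr1 probe match 1 unbroken stretch each. Whether a probe lies in an exon or a UTR was not annotated here.

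By their brightest probes, Tgfbr1 and Ltbp1 ran in opposite directions over the arrays, and their promoters are shown for that reason. Each is the 250 bases before the transcript start in RefSeq (GRCm38.p6). Capitals mark 3 motifs on either strand: the Smad box CAGAC, the GC box GGGCGG and the TATA box TATAAA.
Tgfbr1, chr4:47352972-47353221, plus strand: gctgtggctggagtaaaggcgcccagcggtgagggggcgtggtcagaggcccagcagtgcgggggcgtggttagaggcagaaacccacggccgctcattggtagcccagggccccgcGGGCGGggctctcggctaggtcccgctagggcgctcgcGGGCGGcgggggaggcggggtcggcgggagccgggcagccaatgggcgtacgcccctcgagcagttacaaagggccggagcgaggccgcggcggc
Tgfbr1, chr4:47385966-47386215, plus strand: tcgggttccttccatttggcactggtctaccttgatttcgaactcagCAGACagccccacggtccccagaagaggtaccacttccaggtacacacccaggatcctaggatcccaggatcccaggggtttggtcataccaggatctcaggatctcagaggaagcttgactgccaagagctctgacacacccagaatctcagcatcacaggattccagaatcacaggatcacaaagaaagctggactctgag
Ltbp1, chr17:75005279-75005528, plus strand: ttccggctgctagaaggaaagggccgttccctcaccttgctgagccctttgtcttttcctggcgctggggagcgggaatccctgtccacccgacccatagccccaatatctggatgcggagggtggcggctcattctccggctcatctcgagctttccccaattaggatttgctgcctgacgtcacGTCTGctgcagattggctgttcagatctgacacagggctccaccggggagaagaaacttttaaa
Ltbp1, chr17:75178531-75178780, plus strand: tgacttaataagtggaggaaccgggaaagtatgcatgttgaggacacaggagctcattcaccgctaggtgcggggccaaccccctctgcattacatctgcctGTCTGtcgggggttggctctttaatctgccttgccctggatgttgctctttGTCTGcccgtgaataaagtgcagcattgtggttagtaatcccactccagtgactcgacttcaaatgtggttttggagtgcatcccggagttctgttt
The first Tgfbr1 promoter held 2 GC boxes and had 74.8% G and C, against a median of 52.4% over all 32851 promoters, and the second held 1 Smad box and no GC box, with 52.8% G and C. The first Ltbp1 promoter held 1 Smad box and the second held 2. Over all promoters of this length, 42.2% held a Smad box, 32.7% a GC box and 12.4% a TATA box, so that these matches are common and are given as descriptions only. Among the members, 6 of 10 had a promoter in the table. The Tgfb1 promoter held 5 GC boxes, and the Tgfb2 promoter held 2 Smad boxes and a TATA box that begins 31 bases before the start.

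The 10 genes as a group lay close to 0. By the brightest tested probe of each, 4 were higher and 6 lower in labelled db/m, with a median difference of -0.03, beside a median of -0.03 over all 29890 tested probes. After Benjamini-Hochberg adjustment over all tested probes (limma) no member passed, with adjusted p-values from 0.271 to 0.942, and neither did any probe of the array (0%). At an unadjusted p under 0.05, 1 member was lower, Tgfbr1, and none was higher, where 10.8% of all tested probes were lower and 6.9% higher. The screen used by the study, a fold of at least 2 with an unadjusted p under 0.05, was passed by no member and by 0.96% of all tested probes. In no member did the groups separate completely, whereas db/m lay wholly above db/db for 7.75% and wholly below it for 16.4% of all tested probes. The 95% intervals of the members, not adjusted for the number of probes, reached from 0.27 to 0.96 to either side of the difference. They give the precision of each estimate and not the size of difference that could pass adjustment. Tgfbr1, whose interval left out 0, had an adjusted p of 0.271 in limma.

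**Figure D1:**
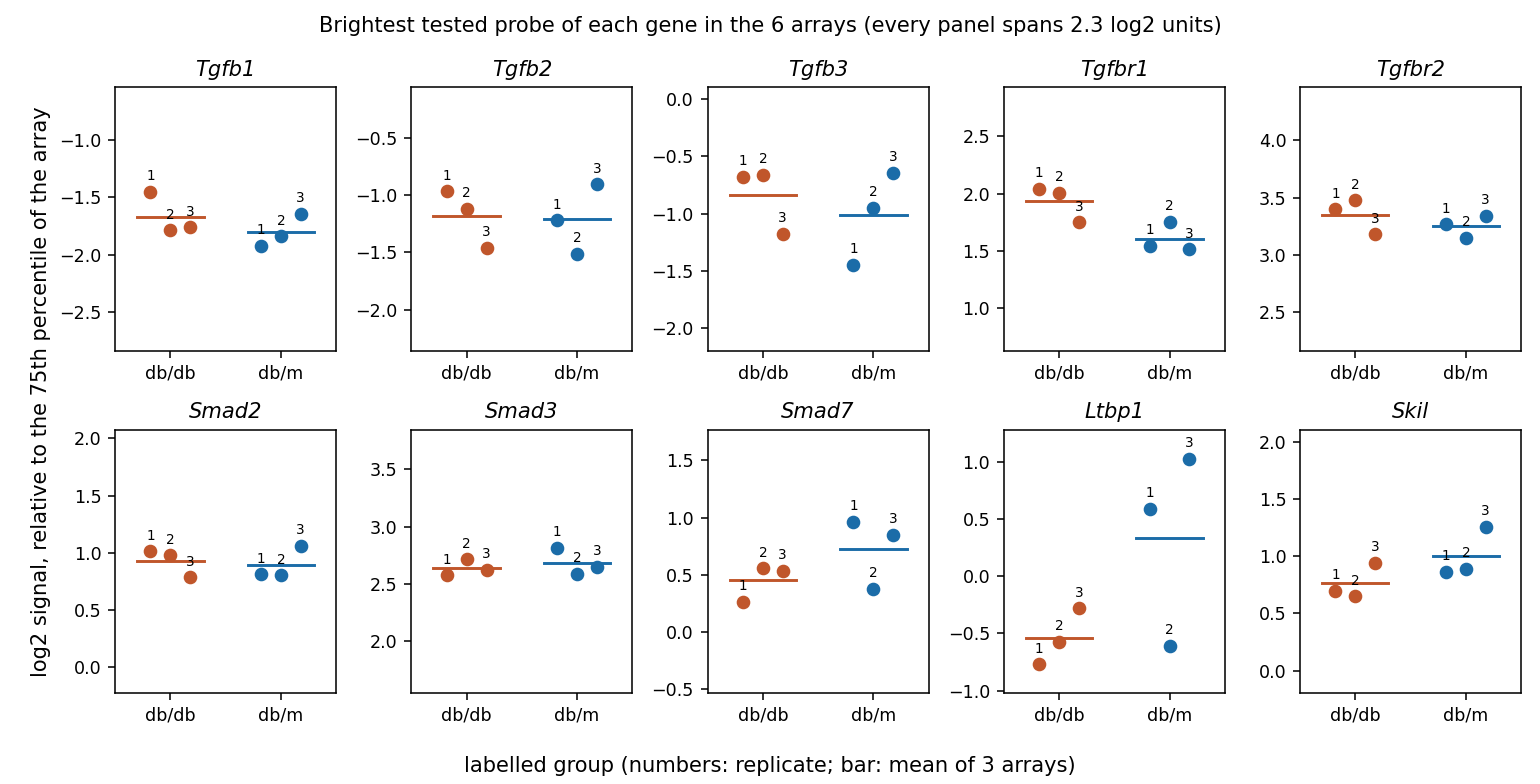
Log2 signal of the brightest tested probe of each of the 10 genes in each array, relative to the 75th percentile of the array, with db/db on the left, db/m on the right, replicate numbers above the points and bars at the means of 3 arrays. The groups overlap in all 10 panels, and Ltbp1 has the widest spread, with db/m replicates 1 and 3 at 0.59 and 1.02 and replicate 2 at -0.61.

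The arrays of the series were alike (Pearson r over tested probes from 0.981 to 0.993), but db/m replicate 2 and db/db replicate 3 each resembled the other most (r = 0.992). The slides were uneven over the groups: slide 1 held db/m replicate 1 and db/db replicate 3, slide 2 the other db/m arrays and slide 3 the other db/db arrays. The difference within slide 1 is therefore given beside the fitted one, and it rests on 1 array a group. Dim probes leaned up and bright ones down, with a median of 0.16 over the dimmest 7473 tested probes and of -0.14 over the brightest 7473.

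The 3 ligands did not differ between the groups beyond their spread. Tgfb1, the main fibrogenic ligand, read -1.93, -1.84 and -1.64 in db/m replicates 1 to 3 and -1.45, -1.79 and -1.76 in db/db. Only db/db replicate 1 stood above the other arrays, and the groups overlapped. The difference was -0.14 ± 0.14 (SE), with an unadjusted p of 0.370 in limma and -0.16 within slide 1. On no array did the other Tgfb1 probe rise well above background.

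Tgfb2, the isoform needed for kidney and heart development, read -1.22, -1.51 and -0.90 in db/m and -0.97, -1.12 and -1.46 in db/db on the brighter probe, shown above as A_65_P10913. The arrays interleaved, and the difference was -0.03 ± 0.20 (SE, unadjusted p = 0.885 in limma) against 0.24 within slide 1. The dimmer Tgfb2 probe A_51_P317640, which lies downstream of it in the transcript, read -1.89, -2.74 and -2.45 in db/m and -2.63, -2.77 and -2.82 in db/db. Here db/m replicate 1 was the highest array and replicate 2 lay among the db/db arrays. The difference was 0.38 ± 0.22 (SE, unadjusted p = 0.124 in limma), and 0.93 within slide 1. The 2 probes thus gave opposite signs, neither with an unadjusted p under 0.05, although the dimmer one had an unadjusted p of 0.00917 in limma with slide as a fixed block, a fit that rests on the pair of slide 1. Their correlation over the 6 arrays was r = 0.25.

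Tgfb3, the third isoform, read -1.45, -0.95 and -0.65 in db/m and -0.68, -0.66 and -1.18 in db/db. Each group held 1 low array, db/m replicate 1 and db/db replicate 3, which share slide 1. The difference was -0.18 ± 0.24 (SE, unadjusted p = 0.491 in limma), with -0.27 within slide 1. Over the 6 arrays the ligands ran loosely together, with r from 0.59 to 0.69 between them, which includes anything the arrays share.

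Ltbp1, which carries the latent ligand to the matrix, had the largest difference of the 10 genes by their brightest probes. It read 0.59, -0.61 and 1.02 in db/m and -0.77, -0.58 and -0.28 in db/db. Replicates 1 and 3 of db/m stood above every other array, while db/m replicate 2 lay among the db/db arrays. The means were 0.33 ± 0.85 and -0.54 ± 0.25 (SD, n = 3), a difference of 0.88 ± 0.40 (SE) or 1.83-fold, with a 95% interval from -0.08 to 1.84. This did not pass (unadjusted p = 0.0677 and adjusted p = 0.305 in limma), and the value within slide 1 was 0.87. Without db/m replicate 2 the difference was 1.35 (unadjusted p = 0.000776 and adjusted p = 0.0606 in limma). Db/m replicate 2 was the lowest db/m array, so that leaving it out widens the difference by construction. In that fit 23.4% of all tested probes had an unadjusted p under 0.05 and 222 passed adjustment. Without db/m replicate 3 the difference was 0.53 (unadjusted p = 0.199 in limma). With any other array left out, the unadjusted p in limma was 0.0806 to 0.163. The other 3 Ltbp1 probes, which match other transcripts of the gene, were not tested, and 2 of them were above background on 1 db/m array each.

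**Figure D2:**
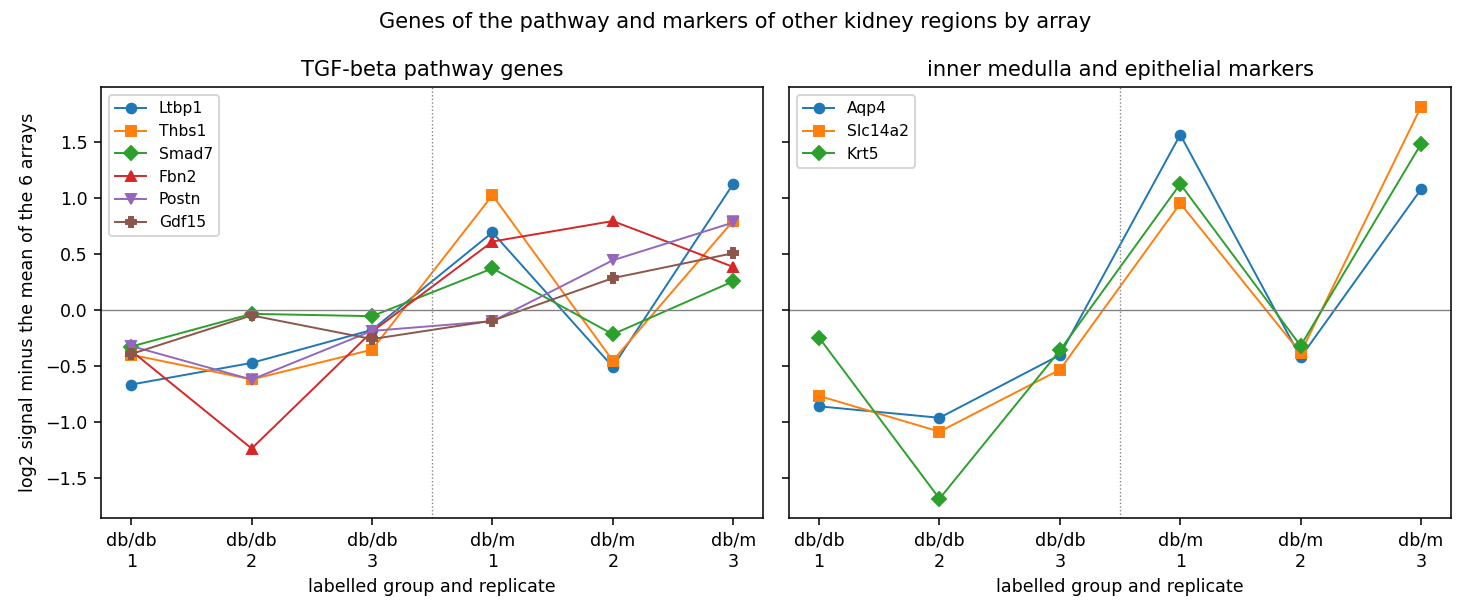
Log2 signal of each gene minus its mean over the 6 arrays, for Ltbp1, Smad7 and 4 other genes of the TGF-beta pathway (left) and for markers of the inner medulla and of keratin 5 epithelium (right), by labelled group and replicate. Ltbp1, Thbs1 and the 3 markers on the right are high in db/m replicates 1 and 3 and not in db/m replicate 2.

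The array pattern of Ltbp1, with db/m replicates 1 and 3 above every other array, was shared by 12.3% of all tested probes and by 18 of 71 tested markers, spread over several cell types. They included 3 of 3 of urothelium and inner medulla, 3 of 7 of collecting duct and 3 of 8 of endothelium. Further ones were 3 of 9 of macrophages and lymphocytes and 2 of 5 of the thick ascending limb. Fibroblasts and mesangial cells gave 2 of 9, and proximal tubule, distal convoluted tubule, podocyte and blood gave none. In 16 of the 71, db/m replicates 1 and 3 were instead the lowest arrays. Among those were 8 of 10 of proximal tubule and 2 of 7 of collecting duct. Of 6 markers of urothelium and inner medulla, 3 were tested, and all 3 were higher in labelled db/m at an unadjusted p under 0.05: the water channel Aqp4 by 1.48, the basal keratin Krt5 by 1.53 and the urea transporter Slc14a2 by 1.59. Their mean level was 0.34, -1.25 and 0.59 in db/m replicates 1 to 3 and from -2.12 to -1.30 in db/db. The defining urothelial markers Upk1b, Upk2 and Upk3a did not pass the filter on dim probes, though each was above background on some array. The 9 fibroblast and mesangial markers had a mean level of 0.96 to 1.62 in db/m and 1.13 to 1.42 in db/db, with 5 higher and 4 lower, of which Gata3 (0.39) was higher and Ren1 (-1.12) lower at an unadjusted p under 0.05. Pdgfra, a fibroblast marker, read 1.57, 0.45 and 1.72 in db/m and 0.68, 0.64 and 0.58 in db/db, the pattern of Ltbp1. Of the 9 fibroblast and mesangial markers, 2 had this pattern and 1 the reverse. The part of these cells and tissues in the Ltbp1 values was not tested.

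The cortex itself was plain in every array, as the 10 proximal tubule markers had a mean level of 6.93 to 7.56 above the scaling point, with 9 lower in labelled db/m and a median of -0.22. Podocyte markers were lower in 6 of 7 (median -0.12), distal convoluted tubule markers in 4 of 4 (median -0.16, with the cotransporter Slc12a3 at -0.91), collecting duct markers in 4 of 7 (Slc26a4 at -0.53), thick ascending limb markers in 3 of 5 and blood markers in 3 of 3 (median -0.35). Endothelial markers were higher in 6 of 8 (median 0.11). Macrophage and lymphocyte markers were higher in 7 of 9 tested, of which Adgre1 (0.37), Lyz2 (0.77) and Ptprc (0.55) had an unadjusted p under 0.05, as did Cd74 in the other direction (-0.45). Both tested adipose markers of 4 were higher (Fabp4 at 0.63), and of 4 tested markers of tubular injury 3 were higher. None of these passed adjustment, and 17.7% of all tested probes had an unadjusted p under 0.05.

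Tgfbr1, the type I receptor kinase that phosphorylates Smad2 and Smad3, was the member with the lowest p. Its brighter probe A_52_P4538 read 1.54, 1.75 and 1.51 in db/m and 2.04, 2.0 and 1.75 in db/db. The groups met only at 1.75, where db/db replicate 3 read just below db/m replicate 2. The means were 1.60 ± 0.13 and 1.93 ± 0.16 (SD, n = 3), a difference of -0.33 ± 0.13 (SE) or 0.796-fold, with a 95% interval from -0.64 to -0.02. The unadjusted p was 0.0416 and the adjusted p 0.271 in limma, and the value within slide 1 was -0.21. As 10.8% of all tested probes were lower at this threshold, 1 of 10 members is near the background. Replicates 1 and 3 of db/m were the lowest arrays of Tgfbr1, as they were for 22.4% of all tested probes and 16 of 71 tested markers. These markers included 8 of 10 of proximal tubule, 3 of 7 of podocyte and 2 of 7 of collecting duct. Distal convoluted tubule gave 1 of 4, fibroblasts and mesangial cells 1 of 9, and macrophages and lymphocytes 1 of 9. The part of these cells in the Tgfbr1 values was not tested.

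The second tested probe of Tgfbr1, A_51_P280137, did not repeat this. It read -3.43, -2.93 and -3.14 in db/m and -3.24, -3.05 and -3.45 in db/db, with the groups interleaved. The difference was 0.08 ± 0.17 (SE, unadjusted p = 0.658 in limma), and the 2 probes correlated at r = 0.27 over the 6 arrays. The remaining 2 probes, designed to other transcripts of the gene, stayed below the call for well above background on all 6 arrays.

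Tgfbr2, the type II receptor that binds the ligand first, read 3.27, 3.15 and 3.34 in db/m and 3.40, 3.48 and 3.18 in db/db. All 6 arrays lay within a narrow range with db/db replicate 3 among the db/m arrays. The difference was -0.10 ± 0.12 (SE, unadjusted p = 0.455 in limma), and 0.09 within slide 1. Its 95% interval ran from -0.39 to 0.20.

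The receptor-activated Smads, which carry the signal from the receptor to the nucleus, did not differ between the groups beyond their spread. Smad2 read 0.81, 0.80 and 1.06 in db/m and 1.01, 0.98 and 0.79 in db/db, a difference of -0.03 ± 0.13 (SE, unadjusted p = 0.793 in limma). Again db/db replicate 3 read like db/m, and db/m replicate 3 was the highest array. Its second probe gave -0.20 ± 0.11 (SE, unadjusted p = 0.131), and 0.00 within slide 1.

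Smad3, the Smad most tied to matrix genes, read 2.81, 2.59 and 2.65 in db/m and 2.58, 2.71 and 2.62 in db/db. The arrays interleaved, with a difference of 0.05 ± 0.11 (SE, unadjusted p = 0.680 in limma). The second Smad3 probe had the opposite sign at -0.14 ± 0.11 (SE, unadjusted p = 0.252), so no direction can be given for this gene. The 95% interval of the brighter probe, from -0.22 to 0.31, was the narrowest of the 15 tested probes.

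Smad7 and Skil, the inhibitors among the members, leaned upward by their brightest probes without passing. Smad7, which recruits ubiquitin ligases to the type I receptor, read 0.96, 0.38 and 0.85 in db/m and 0.27, 0.56 and 0.54 in db/db. As for Ltbp1, db/m replicates 1 and 3 were above every db/db array and db/m replicate 2 was not. The difference was 0.28 ± 0.18 (SE, unadjusted p = 0.176 in limma), and 0.43 within slide 1. It was 0.45 without db/m replicate 2 (unadjusted p = 0.0211), and 0.16 without db/m replicate 1 (0.442) or 0.18 without db/db replicate 1 (0.411). Here too, leaving out db/m replicate 2, the lowest db/m array, widens the difference by construction. Its dimmer probe read -2.42, -3.27 and -2.64 in db/m and -2.88, -2.64 and -2.79 in db/db, a difference of -0.01 ± 0.22 (SE), although the 2 probes ran together over the arrays at r = 0.78.

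Skil, the corepressor SnoN, read 0.86, 0.89 and 1.26 in db/m and 0.70, 0.65 and 0.94 in db/db. Only db/db replicate 3 reached into the range of the db/m arrays. The difference was 0.24 ± 0.15 (SE, unadjusted p = 0.162 in limma) but -0.08 within slide 1, so that it rested on the arrays of the other slides. Its other 2 probes were too dim to test.

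**Figure D3:**
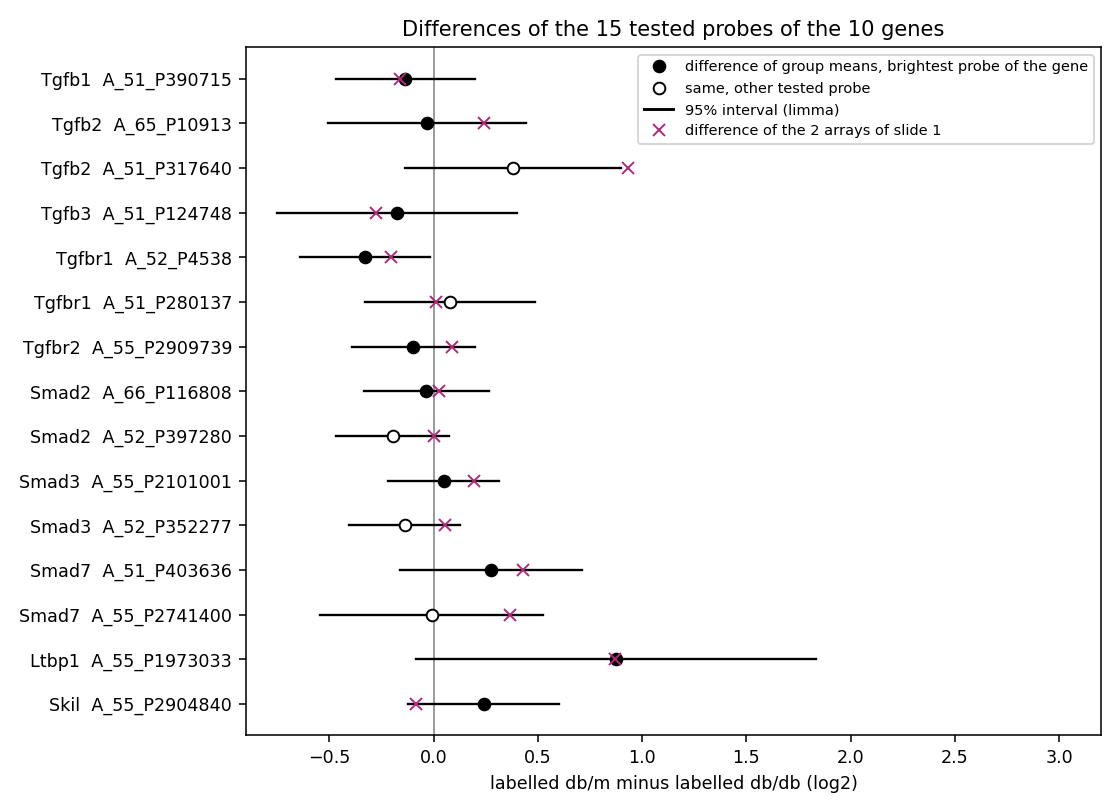
Labelled db/m minus labelled db/db (log2) for the 15 tested probes, with the 95% interval of limma as a line, filled points for the brightest probe of a gene, open points for the others and crosses for the difference between the 2 arrays of slide 1. Only the interval of Tgfbr1 A_52_P4538, from -0.64 to -0.02, leaves out 0, and the second Tgfbr1 probe lies at 0.08.

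Over the 6 arrays the 45 pairs of members had a median r of 0.17, with 6 pairs over 0.8 and 3 below -0.8. The closest were Tgfb2 with Smad2 (r = 0.93) and Ltbp1 with Smad7 (r = 0.91). The 3 pairs below -0.8 all held Tgfbr1, with Ltbp1 (r = -0.89), Skil (r = -0.83) and Smad7 (r = -0.81). All pairs were taken by the brightest probe of each gene, and the 2 tested Tgfbr1 probes correlated at only r = 0.27. These describe 6 arrays that share scaling, slides and the difference between groups. Among the other 20360 genes, the patterns most like that of Tgfbr1 were those of Nomo1, Fpgs and Cyp2j9 (r = 0.999, 0.998 and 0.997), and 1690 genes had an r over 0.9. The genes most like Ltbp1 were Lynx1, Cdca7 and Sdc3 (r = 0.996, 0.995 and 0.994), among 398 over 0.9. For Skil they were AI846148, Apitd1 and Nkain2 (r = 0.995, 0.993 and 0.993), among 145 over 0.9.

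The wider pathway was read from 98 other genes in 5 lists, of which 89 had a tested probe. By the brightest probe 50 were higher and 39 lower, with a median of 0.02, beside -0.03 over all tested probes. At an unadjusted p under 0.05, 6 were higher and 3 lower, where the background was 6.9% and 10.8%, and none passed adjustment (lowest adjusted p = 0.240 in limma). Of the 6 higher, 3 had passed the filter on dim probes only through db/m, the group where they were high, so that their direction was fixed by the filter. Among the 83 genes above background on all 6 arrays, 6 had an unadjusted p under 0.05. With slide as a fixed block 8 of the 9 calls were lost, all but that of Col4a2. Of the 89 genes, db/m lay wholly below db/db for 8 and wholly above it for 4, beside 16.4% and 7.75% of all tested probes. The screen was passed by 1 gene of the 89, Fbn2, beside 0.96% of all tested probes. Fbn2 was not well above background on any db/db array, so that its fold is set against background.

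**Figure D4:**
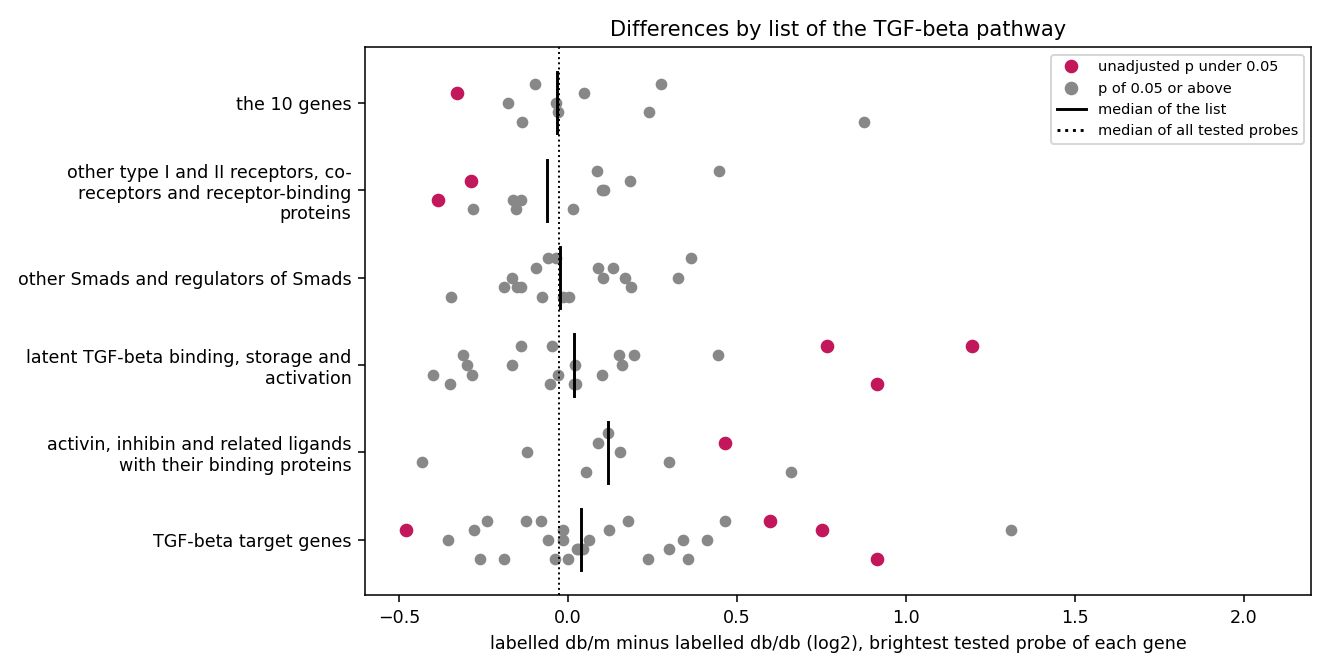
Labelled db/m minus labelled db/db (log2) of the brightest tested probe of each gene, for the 10 genes and the 5 lists of the wider pathway, with red points at an unadjusted p under 0.05, a bar at the median of the list and a dotted line at the median of all tested probes. The medians lie between -0.06 and 0.12, and the red points stand at both ends of the scale.

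Among the receptors, co-receptors and receptor-binding proteins, 12 of 13 genes were tested, with 6 higher, 6 lower and a median of -0.06. At an unadjusted p under 0.05, 2 of the 12 were lower and none was higher, where 10.8% of all tested probes were lower and 6.9% higher. Fkbp1a (FKBP12), which holds the type I receptor inactive, read 6.31, 6.54 and 6.23 in db/m and 6.74, 6.81 and 6.67 in db/db, a difference of -0.38 ± 0.12 (SE, unadjusted p = 0.017). Strap, which strengthens the binding of Smad7 to the receptor, read 1.30, 1.25 and 1.21 in db/m and 1.48, 1.70 and 1.46 in db/db, a difference of -0.29 ± 0.11 (SE, unadjusted p = 0.039). In both, every db/m array lay below every db/db array, as in 16.4% of all tested probes. The values within slide 1 were -0.36 and -0.15, with unadjusted p-values of 0.175 and 0.491 in limma with slide as a fixed block. Fkbp1a was at -0.16 under quantile normalization. All 18 other Smads and Smad regulators were tested, with 8 higher and 10 lower, a median of -0.02 and no gene at an unadjusted p under 0.05.

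Of the 24 genes of latent binding, storage and activation, 21 were tested, with 11 higher, 10 lower and a median of 0.02. Thbs1, Fbn2 and Plg were higher at an unadjusted p under 0.05, as were 6.9% of all tested probes. Fbn2 and Plg entered the test only through db/m. Thbs1 (thrombospondin 1), which can release the active ligand, read 2.49, 1.01 and 2.26 in db/m and 1.07, 0.85 and 1.11 in db/db, a difference of 0.91 ± 0.37 (SE, unadjusted p = 0.045). It had the pattern of Ltbp1 and of the inner medulla markers, with db/m replicate 2 among the db/db arrays. Fbn2 (fibrillin 2) was not well above background on any db/db array, and its level in db/m was at least 1.08-fold higher (adjusted p = 0.240 in limma). Plg (plasminogen) was well above background on 3 db/m arrays and 1 db/db array, so that its difference of 0.77 is set against a group mostly at background, and it was -0.15 within slide 1.

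Of the 14 activins, inhibins, related ligands and their binding proteins, 9 were tested, with 7 higher, 2 lower and a median of 0.12. At an unadjusted p under 0.05, 1 of the 9 was higher, beside 6.9% of all tested probes. Gdf15, a stress-induced ligand, read 1.24, 1.62 and 1.85 in db/m and 0.95, 1.29 and 1.08 in db/db, a difference of 0.47 ± 0.18 (SE, unadjusted p = 0.039). The groups overlapped in 1 array, db/m replicate 1, and the value within slide 1 was 0.16.

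The TGF-beta target genes did not move as a block. All 31 were tested, 19 higher and 12 lower, with a median of 0.04. Of these, 4 had an unadjusted p under 0.05, beside 17.7% of all tested probes. Postn (periostin), a matrix protein, was likewise well above background on 3 db/m arrays and 1 db/db array, with a difference of 0.75 and of 0.09 within slide 1, and Thbs1, described above, is also on this list. Col4a2, a chain of basement membrane collagen, was lower, at 1.95, 2.54 and 2.31 in db/m and 2.78, 2.89 and 2.57 in db/db. Its difference was -0.48 ± 0.18 (SE, unadjusted p = 0.032 in limma), and -0.62 within slide 1. The groups did not overlap, as in the 16.4% of all tested probes that lay wholly lower in db/m. The matrix targets Col1a1 and Col3a1 differed by -0.08 ± 0.35 and 0.03 ± 0.24 (SE), and Acta2 of smooth muscle and myofibroblasts by -0.19 ± 0.30 (SE). Over the 31 targets the differences ran from -0.48 to 1.31, so that these genes do not stand for the list.

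**Figure D5:**
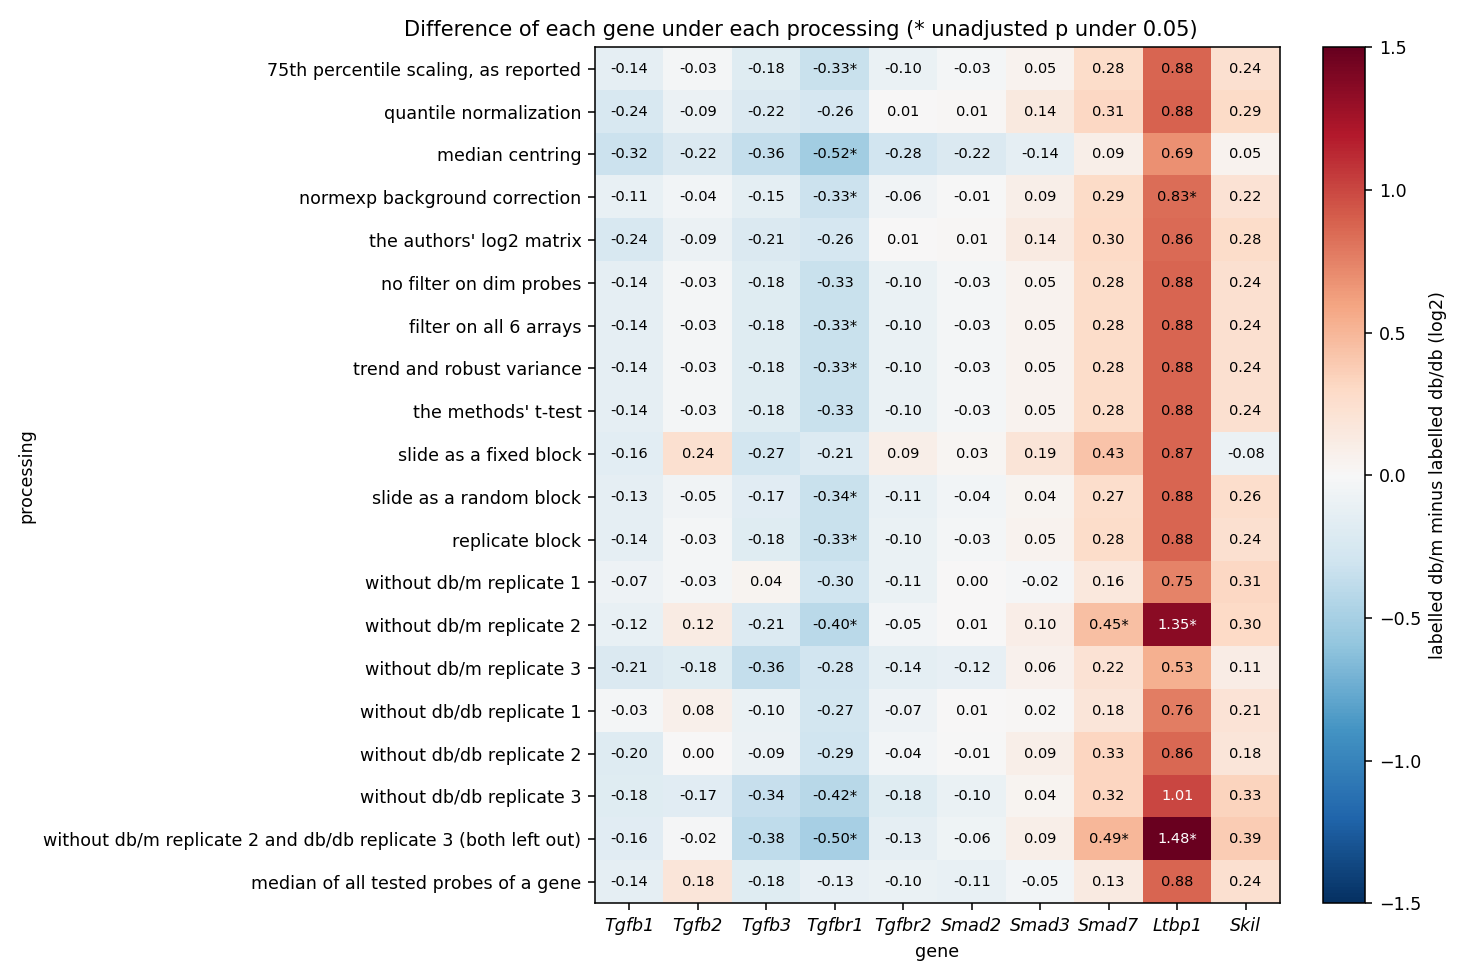
Difference of each of the 10 genes (labelled db/m minus labelled db/db, log2) under the processing reported and 19 alternatives, coloured from lower (blue) to higher (red), with a star at an unadjusted p under 0.05. Tgfbr1 stays below 0 and Ltbp1 and Smad7 above 0 in every setting drawn, while Tgfb2, Smad2, Smad3, Tgfbr2, Tgfb3 and Skil take both signs. Settings that change only the filter, the variance or the replicate block leave the difference as it was.

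Over the 19 alternatives, Tgfbr1 kept its sign in all, from -0.52 to -0.13, and had an unadjusted p under 0.05 in 9 of the 18 that give one. Ltbp1, from 0.53 to 1.48, Smad7, from 0.09 to 0.49, and Tgfb1, from -0.32 to -0.03, also kept theirs. Alternatives that changed only the filter, the variance or the replicate block left each difference as it was, so no sign could turn there. Apart from the median over a gene's probes, all followed its brightest probe. The dimmer tested probes of Tgfbr1 and Smad7 lay at 0.08 and -0.01 in the reported fit, and Ltbp1 and Tgfb1 had no other tested probe. No member passed the adjusted threshold in any of the alternatives tested, in which the lowest adjusted p of a member was 0.0554, of Ltbp1 with db/m replicate 2 and db/db replicate 3 left out. Those arrays were left out because each resembled the other group, which widens differences by construction.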

How the data were processed

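RNA was hybridised to one-colour Agilent arrays, 3 per labelled group. The authors deposited, per array, spot intensity values from Agilent Feature Extraction 10.7.1.1 (version per the labels), with background subtracted and no scaling between arrays. They also deposited a matrix of log2 values, used as an alternative. Gene names and mm9 coordinates came from the scanner file of db/db replicate 1, since 71 names in that of db/m replicate 1 differed. Control spots and outlier spots were left out, spots of a probe were averaged, and log2 values were set relative to the 75th percentile of their own array. A probe that cleared the background call on every array of a group was tested in R 4.3.3 with limma 3.58.1 (lmFit, eBayes, Benjamini-Hochberg over 29890 probes). The brightest tested probe stood for a gene. The fit was tested on simulated data.

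All 10 members were named, and of the pathway and marker lists those with an unadjusted p under 0.05. For the members with the 3 lowest p-values, the 3 genes of highest Pearson r were given. Col1a1, Col3a1, Acta2, Pdgfra and the urothelial markers fall outside this rule and were named after their values were seen. Of the lists, 1 gene that met the rule is counted but not reported here. The members and lists were chosen with earlier results of these data known. Median intensity was 83.8 to 112.0 on db/m and 76.0 to 98.2 on db/db arrays, and 51.6% to 59.0% of probes were well above background. The number of arrays limits the precision, and an exact permutation test of 3 against 3 could not go below 0.1. The labels do not name litters or batches. Alternatives covered scaling, background, filters, variance, slide and replicate blocks, each array left out, and the choice of probe.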

Additional observations from a re-analysis of the deposited data

How the results depend on the processing

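The count of members with an unadjusted p under 0.05, which was 1, became 0 under quantile normalization, the authors' log2 matrix, no filter on dim probes, the methods' t-test, slide as a fixed block and the probe nearest to the median of its gene, and 2 under normexp. It ranged from 0 to 3 when 1 array was left out, with 3 without db/m replicate 2 and 0 without db/m replicate 1, db/m replicate 3, db/db replicate 1 or db/db replicate 2. With db/m replicate 2 and db/db replicate 3 both left out, an alternative chosen after seeing the data, it was 3. The median of the members was -0.22 under median centring, where that of all probes was -0.21.

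Over all probes, 5282 had an unadjusted p under 0.05 (2902 with the fixed slide block, 2320 to 7361 with 1 array left out, 9628 with both left out). An adjusted p under 0.05 was reached by 0 probes (1 under median centring, normexp, the filter on all 6 arrays, trend and robust variance, or the random slide block, 0 to 222 with 1 array left out, 263 with both). The screen took 287 probes (quantile 188, normexp 67, authors' matrix 176, no filter 719, filter on all 6 arrays 139, t-test 112, fixed slide block 843, 151 to 1003 with 1 array left out, 1593 with both). Of these, 81.5% were higher in labelled db/m, against 60.1% under quantile normalization, 55.8% under median centring, 65.7% under normexp, 59.7% in the authors' matrix and 43.4% with the fixed slide block, where the direction of the screen turned.

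Signs turned for Skil (-0.083 with the fixed slide block), Smad2 (0.012 under quantile normalization, 0.012 in the authors' matrix, 0.026 with the fixed slide block, up to 0.010 with 1 array left out, from -0.12), Smad3 (-0.14 under median centring, -0.046 as the median of its probes, -0.016 to 0.095 with 1 array left out), Tgfb2 (0.24 with the fixed slide block, 0.18 as the median of its probes, -0.18 to 0.12 with 1 array left out), Tgfb3 (-0.36 to 0.042 with 1 array left out) and Tgfbr2 (0.011 under quantile normalization, 0.0094 in the authors' matrix, 0.088 with the fixed slide block). Tgfbr1 missed an unadjusted p of 0.05 in limma under quantile normalization (0.0679), the authors' matrix (0.0657), no filter (0.0686) and the fixed slide block (0.372), under the methods' t-test, and without db/m replicate 1 (0.108), db/m replicate 3 (0.131), db/db replicate 1 (0.127) or db/db replicate 2 (0.113). The count of other pathway genes at this threshold was 9, and 3 to 19 with 1 array left out, 15 under median centring, 5 under quantile normalization, 4 under the methods' t-test, 6 of 83 with the filter on all 6 arrays, 7 with the fixed slide block (1 of the 9 among them) and 20 with both left out. In each case the cause was not tested. Whether the replicate numbers pair the arrays could not be settled. Deviations from the group mean correlated at 0.354, 0.148 and 0.046 for same-number arrays, and at -0.337 to 0.149 for unlike numbers. The replicate block left the member count at 1 and gave 6559 probes at an unadjusted p under 0.05. Dim probes carry little signal over background, so that 8 member probes could not be read.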
